A study of Rattus norvegicus with 7 samples.

Results

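The miRNAs mir-126, mir-143 and mir-145 were described in the retina of Wistar WU rats at postnatal days 1, 3, 5, 7, 10, 15 and 21 (P1 to P21). They were picked out of the table by gene symbol, a rule that uses no measured value, and 3 of the 571 miRNA features among 5491 deposited noncoding features matched: Mir126a, Mir143 and Mir145, each with 1 locus. The rats were untreated, and each age is 1 small RNA library (Ion Torrent) made from 3 pooled retinal RNA samples, which the methods state were sequenced 2 times. The values are FPKM, fragments per kilobase of feature and per 1000000 mapped reads, and there are no replicate libraries. All intervals are therefore 95% counting intervals from estimated alignments, which say nothing of differences between animals, pools or amplifications.

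Endothelial cells line blood vessels, and pericytes and smooth muscle cells, together called mural cells, wrap them. mir-126 lies inside Egfl7, a gene of endothelial cells, and lowers inhibitors of VEGF signalling such as Spred1, so it is known for its part in vessel growth and integrity. mir-143 and mir-145 come from 1 transcript, that of the long noncoding RNA Carmn, and are known for the contractile state of smooth muscle, where mir-145 targets Klf4. In rodents the retinal vessels spread from the optic disc over the inner retina around and after birth and later sprout into deeper layers, while the hyaloid vessels of the embryonic eye regress. These are bulk libraries, in which fewer cells of a type and less RNA per cell cannot be told apart. They hold no protein-coding endothelial or mural markers, so the cell type of origin could not be checked within them.

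The mature sequences show what each feature can hold. They are from RefSeq (rat, GRCr8), written 5′ to 3′ with the seed, bases 2 to 8, in capitals. No other mature rat miRNA in that table has any of these seeds.
rno-miR-126a-3p: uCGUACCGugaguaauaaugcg
rno-miR-126a-5p: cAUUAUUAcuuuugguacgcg
rno-miR-126b: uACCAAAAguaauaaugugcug
rno-miR-143-3p: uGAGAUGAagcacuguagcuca
rno-miR-143-5p: gGUGCAGUgcugcaucucugg
rno-miR-145-5p: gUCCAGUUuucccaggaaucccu
rno-miR-145-3p: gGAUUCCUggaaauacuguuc

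Mir126a (ENSRNOG00000035591.2) is annotated on Rnor_6.0 chromosome 3, from 4042464 to 4042581, on the reverse strand, and is 118 bases long. In RefSeq the symbol Mir126a belongs to a hairpin of the same 118 bases of length that holds rno-miR-126b on its own strand, at bases 70 to 91. The widely studied rno-miR-126a-3p and -5p match that hairpin only on the opposite strand, over its bases 28 to 49 and 66 to 86, and RefSeq gives them a separate 73-base hairpin, Mir126b, on the forward strand of the same place. The hairpin is shown because its strand sets what the value can count. It is printed 5′ to 3′ on the reverse strand (RefSeq, GRCr8), and its capitals mark the reverse complement of rno-miR-126a-3p.
Mir126a hairpin: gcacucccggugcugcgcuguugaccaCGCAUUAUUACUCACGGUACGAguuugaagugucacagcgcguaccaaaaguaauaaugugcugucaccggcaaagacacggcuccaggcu
Whether alignments were counted by strand is not given in the sources used here, so miR-126a and miR-126b reads cannot be told apart in this value. No other deposited feature lies within 10 kb, and in RefSeq both hairpins lie inside Egfl7.

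Mir145 (ENSRNOG00000035474.1) is annotated on chromosome 18, from 56969907 to 56969994, and Mir143 (ENSRNOG00000035603.1) from 56971273 to 56971377, both on the reverse strand. They are 88 and 105 bases long with 1278 bases between them, and each is the only other deposited feature within 10 kb of its neighbour. In RefSeq both lie inside Carmn, and both arms of each hairpin match on the strand of the annotated feature.

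The libraries held an estimated 298715 to 1639755 alignments, of which 39.8% at P3 to 75.4% at P15 were on miRNA features. The snoRNA share was 34.9% at P3 and at most 9.68% at the other ages. The alignments were estimated from the steps between low FPKM values, which were sums of 2 steps at P3 to P15 and of 3 at P21. The scale matters between genes. At P1, 1 alignment was worth 109.6 FPKM on Mir145, 29.97 on Mir143 and 22.7 on Mir126a. The intervals deposited for these features were 73, 140 and 164 bases long in that order, unlike the annotated genes. The order of the genes therefore differs between FPKM and estimated alignments.

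Mir145 had the highest FPKM of the 3 on average (47329, rank 54 of 571), followed by Mir126a (25321, rank 83) and Mir143 (7732, rank 183). In estimated alignments Mir126a came first, with a mean of 1696 and rank 39, ahead of Mir145 with 741.1 (rank 68) and Mir143 with 370.0 (rank 98). All 3 were detected at every age, whereas 64 of the 571 miRNA features were listed at 0 at some age.

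Mir126a was, at the ages from P1 to P21 in turn, 42554, 14666, 14922, 7031, 24362, 40166 and 33548 FPKM. These values rested on an estimated 1878, 615, 700, 544, 1114, 2019 and 5002 alignments. In FPKM as deposited, Mir126a was thus high at P1, lower from P3 to P7, and back near its first level at P15. From lowest to highest, the order was P7, P3, P5, P10, P21, P15 and P1, in which P3 and P5 differed by 0.02 on the log2 scale (interval -0.14 to 0.19) and P15 and P1 by 0.08 (-0.03 to 0.19), so neither pair was separated by counting error. The drop from P1 to P3 was 2.90-fold, a log2 change of -1.54 (-1.67 to -1.40), and it stayed between -1.74 and -1.29 under the 5 scalings of the libraries. It was the only change of at least 2-fold among the 3 miRNAs in that step, in which 19.8% of the 571 miRNA features fell and 15.9% rose by that much. From P1 to P21 Mir126a changed by -0.34 (-0.42 to -0.27).

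Mir143 was, at the ages from P1 to P21 in turn, 6414, 10555, 8498, 1747, 7854, 10464 and 8595 FPKM. The estimated alignments behind these values were 214, 335, 301, 102, 272, 398 and 969. Outside P7 the level stayed within a narrow range, from 6414 to 10555 FPKM. From lowest to highest, the order was P7, P1, P10, P5, P21, P15 and P3. Counting error did not separate P10 from P5 (log2 difference 0.11, -0.16 to 0.38), P5 from P21 (0.02, -0.18 to 0.21) or P15 from P3 (0.01, -0.25 to 0.27). From P1 to P21 Mir143 changed by 0.42 (0.21 to 0.64), a direction that turned to -0.20 when each library was scaled to its miRNA total and to -0.58 per 1000000 miRNA alignments.

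Mir145 was, at the ages from P1 to P21 in turn, 28388, 33738, 47315, 12733, 41643, 77456 and 90032 FPKM. The estimated alignments were 259, 292, 459, 204, 394, 805 and 2775. The 2 oldest ages were the highest, P15 rather than P21 being first under the 4 other scalings, and P7 was the lowest. In the order of levels, P10 and P5 were not separated by counting error (log2 difference 0.18, -0.04 to 0.41), and the other neighbours were, P1 and P3 only just (0.25, 0.001 to 0.50). From P1 to P21 Mir145 changed by 1.67 (1.48 to 1.85), which is 3.17-fold, and by 1.04 under miRNA-total scaling and 0.67 per 1000000 miRNA alignments. At least 2-fold higher values at P21 than at P1 were found for 1 of the 3 miRNAs, Mir145, and for 31.5% of all miRNA features.

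**Figure D1:**
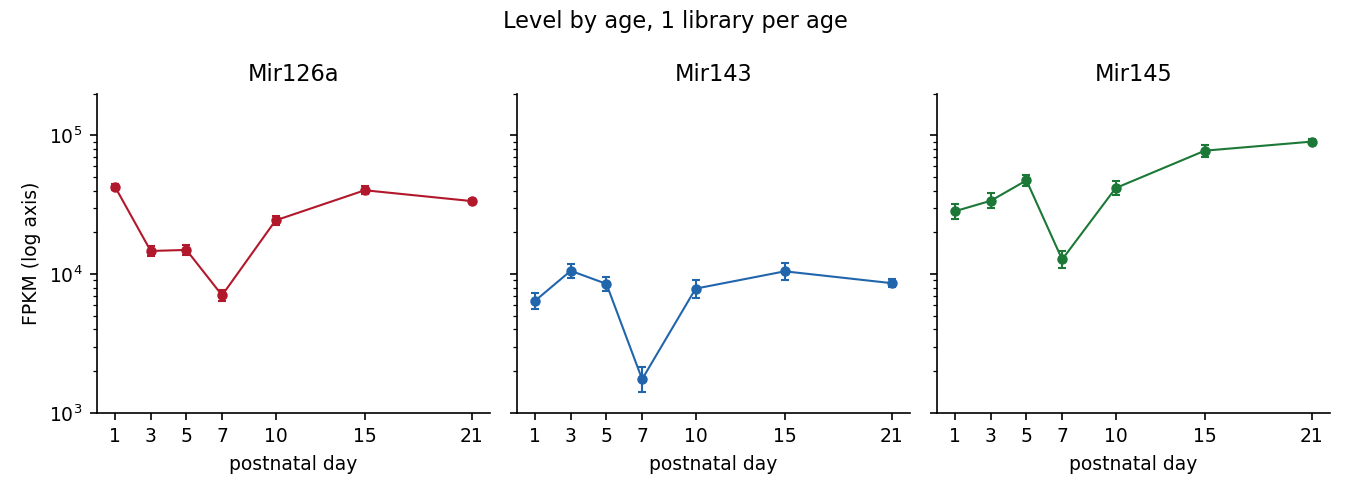
FPKM on a log axis against postnatal day for Mir126a, Mir143 and Mir145, 1 library per age, with bars for the 95% counting interval. Each of the 3 has its lowest point at P7 (7031, 1747 and 12733 FPKM), and Mir145 is highest at P21 (90032 FPKM).

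In the steps from P3 to P5, P10 to P15 and P15 to P21 none of the 3 miRNAs changed 2-fold in either direction. Of all miRNA features, 14.2% rose and 12.1% fell by that much in the first of these steps, 12.1% rose and 27.1% fell in the second, and 32.4% rose and 11% fell in the last. The largest change of a member there was that of Mir145 from P10 to P15, at 0.90 on the log2 scale (0.67 to 1.12). It passed 2-fold by miRNA total (1.13), median of ratios (1.14) and TMM (1.34), as did that of Mir126a by TMM (1.17).

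All 3 miRNAs had their lowest level at P7, the age of the lowest level for 21% of all miRNA features, and this held under each of the 5 scalings. From P5 to P7 the log2 change was -1.09 (-1.25 to -0.92) for Mir126a, -2.28 (-2.61 to -1.95) for Mir143 and -1.89 (-2.14 to -1.65) for Mir145. All 3 fell at least 2-fold in this step, as did 15.6% of all miRNA features, but Mir126a fell by less than that under median-of-ratios, TMM and scaling per 1000000 miRNA alignments, the smallest change being -0.64. From P7 to P10 the log2 change was 1.79 (1.63 to 1.95) for Mir126a, 2.17 (1.82 to 2.52) for Mir143 and 1.71 (1.44 to 1.97) for Mir145. All 3 were at least 2-fold higher at P10, as were 25.9% of all miRNA features. A level at P7 at least 2-fold below both P5 and P10 was seen for 3 of the 3 and for 7.53% of the 571. P7 was singled out after the levels of all 3 had been seen to be lowest there, so these shares only describe the pattern.

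**Figure D2:**
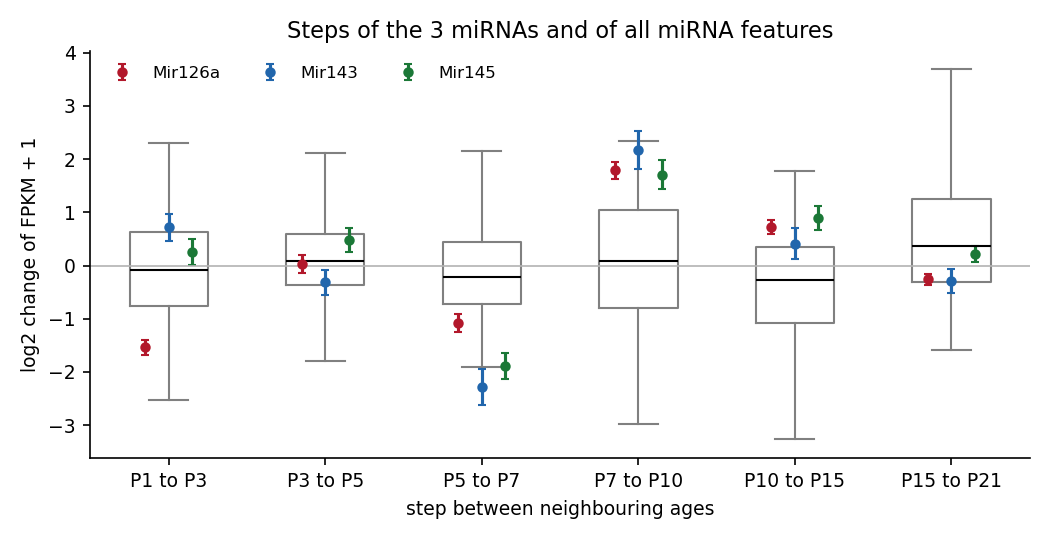
Log2 change of FPKM + 1 in each step between neighbouring ages, with points for the 3 miRNAs (bars, 95% counting interval) and boxes for all 571 miRNA features (middle line, median; box, quartiles; whiskers, 5th to 95th percentile). From P5 to P7 Mir143, at -2.28, lies below the whisker, and from P7 to P10 the 3 points, at 1.71 to 2.17, lie above the box.

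Against the mean of P5 and P10, P7 lay at -1.44 (-1.58 to -1.29) for Mir126a, -2.22 (-2.54 to -1.91) for Mir143 and -1.80 (-2.03 to -1.57) for Mir145 on the log2 scale. From the lowest up, these were ranks 52, 20 and 28 of 571, and the median of all miRNA features was -0.17. This contrast was also chosen after the values were seen, so the ranks are no test. Under the other scalings and with P3 in place of P5 the values ran from -1.44 to -0.96, from -2.38 to -1.75 and from -1.80 to -1.32 in the same order. Scaling by the median of ratios set the level at P7 up by 0.25 relative to P21, and TMM by 0.34. Each age being 1 pool, a difference between animals, tissue or libraries at P7 cannot be told apart from age.

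For Mir143 at P5, P7 and P10, only 1 sum of whole alignments of the 2 steps gave the value within its rounding. The parts of these values can thus be given. A false match stayed possible, since rounding alone was expected to give 0.188, 0.105 and 0.127 matches in turn. The FPKM of each part is multiplied by 2 here, so the 2 parts average to the deposited value. At P7 the parts were 54 and 46 alignments, or 1548 and 1946 FPKM on that scale. At P5 they were 149 and 127 (6320 and 10677 FPKM) and at P10 215 and 59 (7976 and 7731 FPKM). Both parts at P7 lay below every part at P5 and P10. The parts differed by 0.33 on the log2 scale at P7 (-0.24 to 0.90) and by -0.05 at P10 (-0.46 to 0.37), within counting error, and by 0.76 at P5 (0.41 to 1.10), beyond it. The sources used here do not say what the steps are. The other values had several such sums, or 1 that rounding alone could readily give, and were not split.

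Lists of miRNAs named for cell types, each holding every locus of the numbers chosen for it, differed at P7 against P5 and P10. A negative value need not be a low point at P7, since a high P5 or P10 also gives one. Against P5 and P10 the median over the endothelial and vessel growth list was -0.58 (9 of 11 loci below 0, 2 at or below -1), and over the mural and fibroblast list -1.07 (5 of 6 below 0, 3 at or below -1), with the 3 miRNAs described here the lowest of their lists. Of all 571 features, 318 lay below 0 and 16.5% at or below -1. The blood and leukocyte list had a median of -1.18 (7 of 7 below 0), skeletal muscle -2.82 (3 of 3), lens, cornea and surface epithelium -2.98 (2 of 2), photoreceptors -1.15 (2 of 2), pigment epithelium -0.59 (2 of 2) and neurons -0.27 (7 of 9). Single loci of these lists lay at -1.31 (Mir144, erythrocytes), -2.72 (Mir133b, muscle), -2.57 (Mir205, surface epithelium), -0.42 (Mir204, pigment epithelium), and -0.51 and -1.80 (Mir183 and Mir96, which share a photoreceptor cluster). Under the 4 other scalings all of these values were higher by 0.24 to 0.48, which took the median of all features from -0.17 up to as much as 0.31 and that of the neurons from -0.27 up to 0.20. The neuronal median was above 0 by median of ratios, TMM and per 1000000 miRNA alignments, and those of the other 7 lists stayed below 0 under every scaling, at most -0.11 for the endothelial and the pigment epithelium lists. Without Mir126a the endothelial median was -0.35, and without Mir143 and Mir145 the mural median was -0.63, as deposited. No locus of these lists was at 0 at any age. In FPKM, P7 was the lowest age for 2 of 11 endothelial, 3 of 6 mural, 1 of 7 blood and 2 of 9 neuronal loci. It was so for 1 of 3 skeletal muscle and 1 of 2 lens loci, and for 21% of all miRNA features. No photoreceptor or pigment epithelium locus was lowest at P7. Mir211, of the pigment epithelium list, was 5703 FPKM at P5, 13414 at P7 and 89610 at P10. The skeletal muscle and lens loci averaged only an estimated 29.0 to 118 alignments per age. At P7 they were at 15.5 to 23.9 per 1000000 miRNA alignments, in a library with an estimated 347087 of these. Their values at P7 thus rest on few alignments. No counting intervals were computed for the lists.

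**Figure D3:**
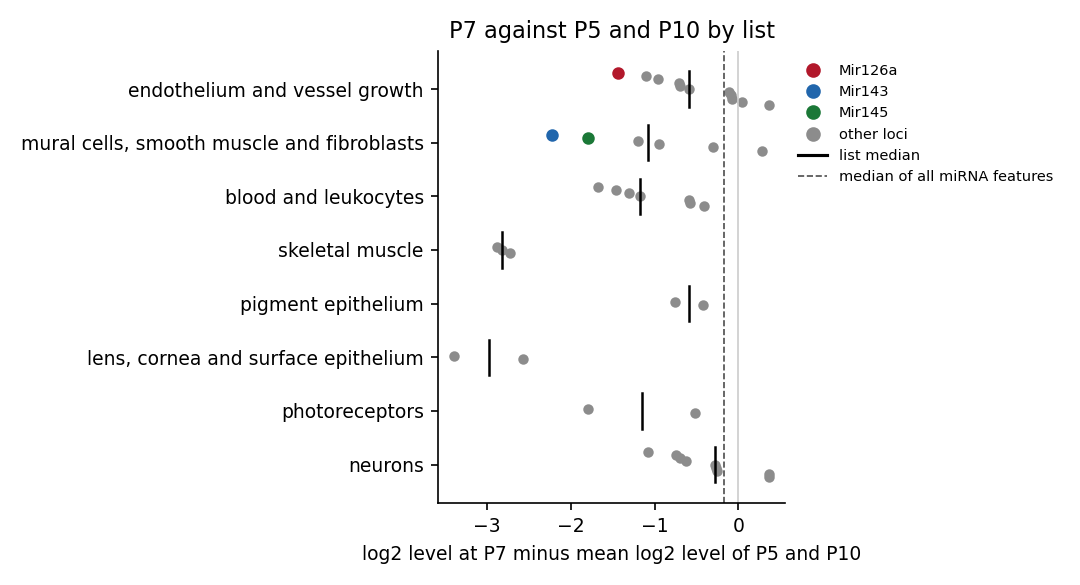
Log2 level at P7 minus the mean log2 level of P5 and P10 for each locus of 8 cell type lists, with black bars for list medians and a dashed line for the median of all 571 miRNA features (-0.17). Mir126a, Mir143 and Mir145 are the lowest points of their lists. All loci of the skeletal muscle and lens lists lie below them, but rest on few alignments at P7. A high P5 or P10 also gives a negative value.

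The lists were also summed per 1000000 miRNA alignments, and they did not share 1 course. The mural list, which holds Mir143 and Mir145, was lowest at P7 (4155) and 7394 to 10673 at the other ages, with Mir21, a miRNA of fibroblasts and many other cells, as its largest member (2399 at P7 and 2779 to 5154 otherwise). Without Mir143 and Mir145 it was still lowest at P7, at 3274 beside 4572 to 7084. The endothelial list was 19282 at P1 and 6752 to 9761 at the later ages, lowest at P7. Mir126a alone made up 10499 of the sum at P1, and without it the list was 8783 at P1, 5184 at P7 and lowest at P15, at 2443. The blood list was 1655 at P1 and 488 to 905 later, again lowest at P7. Its member Mir451a, an erythrocyte miRNA, was, at the ages from P1 to P21 in turn, 13378, 3660, 7945, 3910, 9890, 6432 and 12067 FPKM. In FPKM as deposited, Mir126a and Mir451a were thus both highest at P1 and lower at P3 and P7. The other loci of the blood list were highest at P1, P10 or P21. Mir144, also of erythrocytes, was highest at P10, at 4093 FPKM beside 3497 at P1.

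The skeletal muscle and lens lists had the widest ranges of the 8 lists as a ratio of the highest to the lowest age. The skeletal muscle list was 1623 at P3, 986 at P5 and 50.7 to 162 at the other ages, with 58.6 at P7 and its lowest value at P15. Mir206, a skeletal muscle miRNA, was 130765 FPKM at P3 and 3513 at P7. The lens, cornea and surface epithelium list was 1370 at P1, had fallen to 434 by P5, reached its lowest value of 40.6 at P7 and was 61.5 to 362 later. Mir184, a miRNA of lens and cornea, was 28786 FPKM at P1, 4653 at P5 and 456 at P7. Mir205, the only other locus of that list, went the other way at first. It was 503 FPKM at P1, 6154 at P3, 6843 at P5 and 426 at P7. The neuronal list was 83824 at P1, 342724 at P5, 400515 at P7, 348733 at P10 and 484917 at P21, so P7 was no low point of the sum. Most of that sum came from the 3 Mir124 loci, which may share their reads, with 132781, 132636 and 131511 at P7. In FPKM, 2 of the 9 neuronal loci were lowest at P7. The photoreceptor list was 39004 at P7, between 34722 at P5 and 60287 at P10, and the pigment epithelium list was 32326, between 29153 and 37811. Whether the pools held tissue other than retina, and whether it had a part in the levels of Mir126a, Mir143 and Mir145, was not tested.

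Ratios within a library do not depend on the scaling between libraries. Mir145 to Mir143, which share a transcript, was, at the ages from P1 to P21 in turn, 4.43, 3.20, 5.57, 7.28, 5.30, 7.40 and 10.5 as a ratio of FPKM. The ratio was lowest at P3 and highest at P21, and its log2 change from P1 to P21 was 1.24 (0.96 to 1.52). In estimated alignments it went from 1.21 to 2.86. The 2 miRNAs of 1 cluster therefore did not keep 1 ratio with age within counting error.

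Mir126a to the sum of Mir143 and Mir145 was, at the ages from P1 to P21 in turn, 1.22, 0.331, 0.267, 0.486, 0.492, 0.457 and 0.340 as a ratio of FPKM. P1 stood apart as the only age with more Mir126a than Mir143 and Mir145 together on this scale. In estimated alignments Mir126a exceeded them at P1 (3.97) and from P7 on (1.34 to 1.78), and lay near 1 at P3 and P5 (0.981 and 0.921). The log2 change from P1 to P21 was -1.85 (-2.02 to -1.67) in FPKM and -1.57 in alignments.

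**Figure D4:**
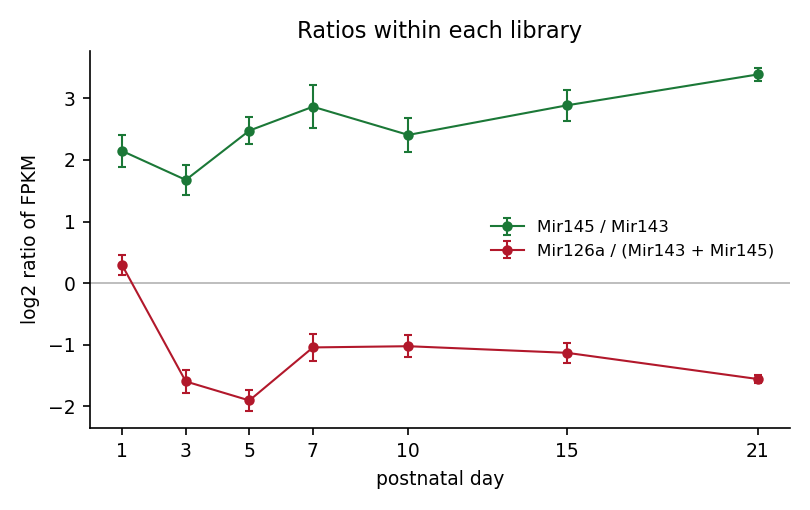
Log2 ratio of FPKM against postnatal day for Mir145 to Mir143 and for Mir126a to the sum of Mir143 and Mir145, 1 library per age, with bars for the 95% counting interval. The first goes from 2.15 at P1 to 3.39 at P21, and the second falls below 0 after P1.

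With 1 library per age, the relation of level with age over the 7 ages was the test the design allowed. Spearman's rho with age was 0.11 for Mir126a (exact permutation test, two-sided, p = 0.840, Benjamini-Hochberg adjusted over 571 features p = 0.913). For Mir143 rho was 0.21 (exact permutation p = 0.662, adjusted p = 0.811) and for Mir145 0.71 (exact permutation p = 0.0881, adjusted p = 0.262). None of the 3 passed, against 5.95% of all miRNA features (3.5% rising and 2.45% falling). Pearson's r of log2(FPKM + 1) with age was 0.35 for Mir126a (exact permutation p = 0.441, adjusted p = 0.600), 0.20 for Mir143 (p = 0.703, adjusted p = 0.817) and 0.69 for Mir145 (p = 0.0869, adjusted p = 0.224). Without P15 and P21, the 2 ages farthest from the median age, r was -0.36, -0.25 and -0.01, so the positive r for Mir145 depended on those ages. With only P7 left out, rho for Mir145 was 0.94 (exact permutation adjusted p = 0.111). Over all 7 ages, 24.5% of the features passed at unadjusted p under 0.05 and none of the 3 did. The smallest p that 7 ages can give is 0.000397.

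Among the other miRNAs of vessels, the endothelial list held 11 loci, of which 2 rose with age and 1 fell at an adjusted p under 0.05, beside 3.5% and 2.45% of all miRNA features. Mir329 (rho 0.96, exact permutation adjusted p = 0.0467) was 3522 FPKM at P1 and 24076 at P21, and Mir221, which lowers the Kit receptor in endothelial cells, was 520 and 3481 with the same rho and p. Mir130b fell, with a rho of -0.96 and the same adjusted p, from 16962 to 4451 FPKM. Its relative Mir130a, the most abundant of the list by FPKM, was 50652 at P1 and 122694 at P21 (rho 0.36, exact permutation adjusted p = 0.628). The median rho over the list was 0.11, beside -0.04 over all miRNA features.

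None of the 6 mural loci passed in either direction, and their median rho was 0.36. Mir21 was 79025 FPKM at P1, 40696 at P7 and 85097 at P21 (rho 0.50, exact permutation adjusted p = 0.463). None of the blood, skeletal muscle, lens or photoreceptor loci passed either. Of the neuronal loci, 5 of 9 rose, beside 3.5% of all miRNA features, namely Mir124-1, Mir124-2, Mir124-3, Mir129-2 and Mir138-2 (adjusted p = 0.0467 each in the exact permutation test), the 3 Mir124 loci sharing their mature sequence and so possibly their reads. Mir211, a miRNA of the pigment epithelium, rose from 2090 FPKM at P1 to 233594 at P21 (rho 1, exact permutation adjusted p = 0.0378). The lists' numbers mir-10, mir-210, mir-214, mir-486, mir-155, mir-203 and mir-182 matched the symbol of no miRNA feature, so they were not analysed.

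The miRNAs whose pattern was most like that of each member were ranked by Pearson's r of log2(FPKM + 1) over the 7 ages, among 355 other miRNA features averaging 20 or more estimated alignments. This is a description, since all points share the same 7 libraries. For Mir126a these were Mir361 (r = 0.97), Mir379 (0.94), AABR07047212.1 (0.93), AABR07047194.2 (0.93) and Mir411 (0.93). Mir361 was, at the ages from P1 to P21 in turn, 36106, 17529, 12794, 6305, 31298, 35630 and 32923 FPKM, the same course of a high P1, a low P7 and a return.

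For Mir143 they were Mir667 (0.96), Mir149 (0.88), Mir21 (0.85), Mir3565 (0.83) and its cluster neighbour Mir145 (0.82). Mir143 was 4.86-fold lower at P7 than at P5, and Mir667 1.75-fold. For Mir145 they were Mir27a (0.94), Mir598 (0.92), Mir455 (0.91), Snora58 (0.90), a feature that the file lists as a miRNA under a snoRNA name, and Mir34a (0.90). Mir455 shared the low P7, being 3.80-fold lower there than at P5, beside 3.72-fold for Mir145. Among the members, Mir126a had an r of 0.66 with Mir143 and of 0.71 with Mir145, lower than that between Mir143 and Mir145.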

How the data were processed

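Small RNA of the retina was measured at 7 ages, 1 pooled library each. After trimming and mapping to Ensembl noncoding RNAs, the authors deposited FPKM values from Cuffdiff (version 2.2.1.3 in the submitters' processing notes, with build Rnor_6.0) for each pair of ages. The pairs repeat each FPKM, and 1 copy of it was taken. The authors' fold changes, p-values and q-values were not used. The members, lists and tests were chosen with earlier results of these data known. Depth was estimated from the steps between low values, with equal signal assumed for the steps of a library (the smaller step held 50.0% to 63.2% of the signal of low values), and the procedure was tested on simulated data. Levels were compared as log2(FPKM + 1), with a filter of a mean of at least 10 FPKM that removed no miRNA feature. Trends were tested by exact permutation over 5040 orders and Benjamini-Hochberg adjusted. The genes named were all members, the 2 loci of highest mean FPKM and all loci with a passing trend in each list, the 5 most alike features per member, and features within 10 kb. Alternatives were 4 other scalings, pseudocounts of 0.1 and 10, stricter filters and leaving out each age. Mir-9 is not reported here. Python 3.11.15, numpy 2.4.6, pandas 2.3.3 and scipy 1.17.1 were used.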

Additional observations from a re-analysis of the deposited data

How the results depend on the processing

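Of 144 values recomputed under an alternative, 35 moved beyond the counting error or the limit set for ages and counts, and 8 reversed. The other 101 kept their direction and, for the trends, their side of the threshold, although rho itself ranged widely. The log2 change of mir-126 from P1 to P21 was -0.97 by miRNA total, -0.27 by median of ratios, -0.21 by TMM and -1.34 per 1000000 miRNA alignments. That of mir-143 reversed to -0.20 by miRNA total and -0.58 per 1000000, as did its trend (rho -0.36 and -0.61), and that of mir-145 was 1.04 and 0.67. The highest age was day 15 for mir-126 and mir-143 by median of ratios and TMM, and for mir-145 by all 4 scalings. P7 against P5 and P10 was, by miRNA total, median of ratios, TMM and per 1000000 in turn, -1.20, -1.12, -0.996 and -0.96 for mir-126 and -1.56, -1.48, -1.36 and -1.32 for mir-145, and for mir-143 -1.90, -1.78 and -1.75 by the last 3. With P3 in place of P5, that of mir-145 was -1.56 (these alternatives, and the contrast itself, were chosen after seeing the data). The ratio of mir-126 to mir-143 and mir-145 changed by -1.57 in estimated alignments. Features with a trend numbered 15 by median of ratios and 56 per 1000000, beside 34. The causes were not tested. Leaving out each age in turn, rho ran from -0.0857 to 0.77 for mir-126, from -0.0857 to 0.66 for mir-143 and from 0.54 to 0.94 for mir-145, with adjusted p from 0.341 to 1, 0.369 to 0.97 and 0.111 to 0.640 in the exact permutation test. The highest age ran from 1 to 15, 3 to 15 and 15 to 21, and the lowest from 3 to 7, 1 to 7 and 1 to 7. No alternative made a member's trend pass. The mean over loci was not run, since each member has 1 locus. No paired analysis was possible because each age has 1 library.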
